A study of Mus musculus with 6 samples.

Results

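The 46 genes described here encode proteins that license replication origins, build and run the replication fork, supply deoxynucleotides, or start S phase. They were given as a list of symbols, drawn up with earlier results of these data known, and were found as rows of the deposited gene tables. All 46 were among the 38924 gene models in the files, and all 46 had enough reads to be tested. Expression was compared between mouse CD4+CD25+ T cells sorted for surface ILT3, a receptor with inhibitory motifs that belongs to the leukocyte immunoglobulin-like receptors. The 3 ILT3+ and 3 ILT3- samples share everything else in their labels: wild type, untreated, syngeneic mice of both sexes aged 10 to 16 weeks, and cells from spleen and mesenteric lymph nodes. Cells were pre-enriched on magnetic columns before flow sorting. No transgene or induced deletion is named for either group. Whether a sample is 1 animal or a pool is not given in the labels. The p-values therefore speak only of the spread among these 6 samples, part of which may be technical. Values per sample are given in the order of samples 1, 2 and 3.

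A cell copies its genome once per division. Before S phase the origin recognition complex, with Cdc6 and Cdt1, loads the ring of Mcm2 to Mcm7 onto DNA. In S phase Cdc45, the GINS complex and Mcm10 turn that ring into a running helicase, and DNA polymerases alpha, delta and epsilon copy the strands with the sliding clamp PCNA. Ribonucleotide reductase, thymidylate synthase and thymidine kinase supply the precursors. Many of these genes are controlled by E2F transcription factors, which are held back by retinoblastoma proteins in resting lymphocytes, so their transcripts are low in a resting T cell and rise when it enters the cell cycle. Among T cells in lymphoid tissue, regulatory T cells are known for a high share of dividing cells.

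Total gene reads were 9334370 to 13648274 per library. On these totals, before scaling between samples, 3 reads correspond to 0.220 to 0.321 CPM (read counts scaled to a common depth). All other CPM are on library sizes scaled between samples. The gene for ILT3, named Lilrb4 in the files, measured 3.24, 4.32 and 5.81 CPM in ILT3- against 304, 284 and 407 CPM in ILT3+ samples. T cell markers summed to 4564 to 6686 CPM in all 6 libraries and the Treg marker Foxp3 was at 676 to 1123 CPM, with 0 of the 10 T cell markers called by edgeR (1 at an unadjusted p under 0.05; Cd5 was called lower with the sample number as a block). The 2 samples numbered 1 stood apart from the other 4 on principal component 2 (31.95% of the variance). Markers of other cells also differed between libraries. Summed over 12 monocyte and macrophage markers, ILT3+ sample 1 had 1099 CPM, against 12.6 to 38.5 CPM in the other 5, and none of the 8 tested markers was called by edgeR (4 at an unadjusted p under 0.05), while 3 were called higher with the block: C1qb, C1qc and Adgre1, named Emr1 in the files. In the same sample 8 B cell markers summed to 122.8 CPM, against 29.1 to 52.4 CPM in the other 5. The 11 erythroid markers had 366.8 CPM there, 157.5 and 164.4 CPM in the other ILT3+ samples and 55.6 to 111.6 CPM in the ILT3- samples, with 3 called higher. Of 11 dendritic cell markers 4 were called higher, and the list summed to 1880.0 to 2501 CPM in ILT3+ and 525 to 2278 CPM in ILT3- samples. Ccr7, which T cells also express, made up most of the ILT3- sums (366, 2106 and 1494 CPM in ILT3- against 240.5, 667.5 and 483 CPM in ILT3+ samples; called lower with the block). Without Ccr7 the other 10 markers had 155 to 172 CPM in ILT3- and 1397 to 2261 CPM in ILT3+ samples. That sum was chosen after the values were seen. Most of it was Cd74 and H2-Aa, with means of 139 and 11.1 CPM in ILT3- against 1368 and 284 CPM in ILT3+ samples. Batf3 and Fscn1, also called higher, averaged 0.201 and 1.15 CPM against 14.1 and 17.4 CPM. Zbtb46 and Xcr1 were higher on average without an edgeR call. Flt3 and Siglech averaged 1.69 and 0.399 CPM in ILT3- against 1.87 and 0.286 CPM in ILT3+ samples. Clec9a had no reads in ILT3+ samples. Of 6 NK and innate lymphoid markers 2, Kit and Tyrobp, were called higher (list sums of 200.8 to 234.7 CPM in ILT3+ and 21.75 to 24.05 CPM in ILT3- samples). Most of these sums was Kit, with means of 178.5 CPM in ILT3+ and 19.0 CPM in ILT3- samples. Ncr1 was at 5.82, 0 and 0.638 CPM and Klrb1c at 23.9, 0.161 and 0.638 CPM in ILT3+ samples 1, 2 and 3. Eomes averaged 0.442 CPM in ILT3+ and 2.63 CPM in ILT3- samples, and Klra8 had no reads. Of 8 plasma cell markers 1, Prdm1, was called higher (list sums of 337 to 727 CPM in ILT3+ and 233 to 602 CPM in ILT3- samples). Of the 6 tested, 3 had an edgeR unadjusted p under 0.05: Prdm1, Sdc1 and Jchain (Igj in the files). Sdc1 and Jchain averaged 2.61 and 3.15 CPM in ILT3- against 8.4 and 15.2 CPM in ILT3+ samples, and both overlapped between groups. Most of the sums was Xbp1 and Irf4, with means of 206 and 200 CPM in ILT3- against 233 and 174 CPM in ILT3+ samples. Derl3 and Tnfrsf17 averaged 0.881 and 0.146 CPM in ILT3- against 0.654 and 0.0266 CPM in ILT3+ samples. The 6 germinal centre B cell markers summed to 59.8 to 130.4 CPM in ILT3+ and 95.3 to 124 CPM in ILT3- samples. The dendritic cell marker Itgax had no reads in any ILT3- library, nor in ILT3+ sample 2. ILT3+ sample 1 had 4.597 CPM of it, while ILT3+ sample 3, with 0.0798 CPM, stayed below the level of 3 reads. The part of these cells in the values below was not tested. In sorted bulk samples a larger share of cycling cells and more RNA per cycling cell cannot be told apart.

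No promoter sequence was searched here to choose these genes. Whether known E2F control played a part in drawing up the list is not known. Of the 46 genes, 37 were in the RefSeq promoter table (GRCm38.p6; 250 bases before to 50 after each start). The table was searched on both strands for 7-letter words of the E2F type: the word TTCCCGC, the word TTGGCGC, the word TTCGCGC and the word TTGCCGC, overlapping words being counted once. At least 1 word was found in 23 of the 37 genes (62.2%), against 10.9% of the 27025 genes in the table, and 2 or more in 10, against 1.27% of the table. Median GC content was 60.7% in these promoters and 52.7% in all, and the comparison was not matched for GC content. The promoters shown are that of Rrm2, the one gene called in the comparison, and those of Pola1, Mcm3, Mcm5 and Lig1. The latter are the first, by smallest p, of the 10 genes with 2 or more words that do not overlap. The rest of the 10 are not shown, and for Lig1 1 of its 3 promoters in the table is. Each sequence is 5′ to 3′ on the strand of its gene, with the words in capitals. Those of Rrm2 (chr12:24708004-24708253, plus strand), Pola1 (chrX:93632156-93632405, minus strand) and Mcm5 (chr8:75109259-75109508, plus strand) are the 250 bases before the start, and those of Mcm3 (chr1:20820264-20820293, minus strand) and Lig1 (chr7:13278852-13278874, plus strand) are short stretches after it.
Rrm2: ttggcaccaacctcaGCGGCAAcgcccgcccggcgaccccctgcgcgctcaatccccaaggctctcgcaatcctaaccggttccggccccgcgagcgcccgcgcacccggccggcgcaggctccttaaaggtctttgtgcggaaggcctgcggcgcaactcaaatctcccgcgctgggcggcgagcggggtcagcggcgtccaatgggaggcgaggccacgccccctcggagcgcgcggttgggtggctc
Pola1: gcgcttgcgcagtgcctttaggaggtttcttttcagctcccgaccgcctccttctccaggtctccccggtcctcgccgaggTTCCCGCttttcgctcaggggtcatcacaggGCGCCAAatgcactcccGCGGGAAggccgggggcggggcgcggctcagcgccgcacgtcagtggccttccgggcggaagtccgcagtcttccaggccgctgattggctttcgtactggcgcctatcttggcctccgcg
Mcm3: GCGGGAAaacttgggaagttTTGGCGCCAA
Mcm5: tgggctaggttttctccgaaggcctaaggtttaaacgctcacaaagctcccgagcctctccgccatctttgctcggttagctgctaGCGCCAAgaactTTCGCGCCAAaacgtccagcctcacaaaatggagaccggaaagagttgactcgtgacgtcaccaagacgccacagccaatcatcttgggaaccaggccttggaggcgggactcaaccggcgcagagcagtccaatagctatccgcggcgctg
Lig1: GCGCGAAatctgtgtgGCGCGAA

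Rrm2 and Pola1 differ in how many words they hold. The Rrm2 window has 1 word, beginning 235 bases before the start. The Pola1 window has 4, beginning at -169, -138, -121 and 16 relative to the start, the last lying outside the printed stretch. In Mcm3 the words begin 20 and 40 bases after the start, in Lig1 at 27 and 43, and in Mcm5 at -164 and -152. The last capitals of Mcm3 and of Mcm5 run over 2 overlapping words each, counted as 1. A match to letters is not a binding site, and the number of words did not order the genes by their difference between groups: Tyms and Rfc5, with edgeR unadjusted p of 0.00141 and 0.00780 on 3 samples per group, had 0 words, and Pola1 with 4 had a log2 fold change of 0.57. The letters CCAAT and TTTGAA were searched the same way. CCAAT was in 22 of the 37 genes (59.5%, against 41.1% in the table), and TTTGAA, the letters of the cell cycle homology region known from G2 and mitosis genes, in 6 (16.2%, against 20.2%). For 27 mitosis and spindle genes the order was the other way round, with an E2F word in 5 (18.5%) and TTTGAA in 21 (77.8%).

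**Figure D1:**
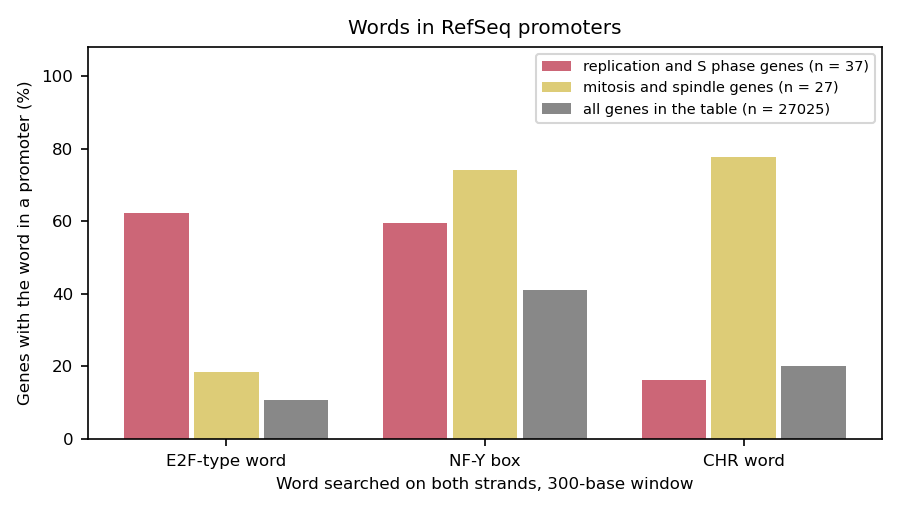
Share of genes (percent) with at least 1 match to each promoter word (E2F type; CCAAT, labelled NF-Y box; TTTGAA, labelled CHR word) in the window of 300 bases, for the replication and S phase genes, the mitosis and spindle genes, and all genes of the RefSeq table. E2F words are in 62.2% of replication genes, 18.5% of mitosis genes and 10.9% of all genes, while TTTGAA is in 16.2%, 77.8% and 20.2%.

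Most of the 46 genes were on average higher in ILT3+ cells by a modest amount, and a single one passed the test. That gene was Rrm2, the small subunit of ribonucleotide reductase, which rose 3.61-fold. In edgeR's quasi-likelihood test at an adjusted p of 0.05, 1 of 46 was called higher (2.17%), against 1.96% of all 13694 tested genes, and 0 were called lower, against 0.343%. The share called was thus near that of all genes. At an unadjusted p under 0.05, 12 were higher and 0 lower, where 8.43% and 5.37% of all tested genes were. A log2 fold change above 0 was fitted for 41 genes (89.1%), against 48.0% of all tested genes. The median was 0.49, against -0.02 over all tested genes. The fitted values ran from -0.70 (Cdt1) to 3.44 (Mcm10). For 21 genes the value was smaller than 1 SE, so their direction is not resolved. A value above 1 SE does not by itself resolve the direction of the others, as for Cdt1 (SE 0.46, edgeR unadjusted p = 0.166).

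In 13 of the 46 genes (28.3%) every ILT3+ sample was above every ILT3- sample, and in 0 was it the reverse. Over all tested genes the shares were 11.4% and 8.76%. The 13 were Cdc6, Mcm4, Mcm10, Pola1, Pola2, Rfc3, Rfc5, Fen1, Rrm1, Rrm2, Tyms, Clspn and E2f8, and they hold genes of every role, from licensing to nucleotide supply. A fit that blocks on the sample number called 7 of the 46 higher (15.2%; 4.18% of all tested genes), namely Cdc6, Mcm5, Rfc5, Rrm1, Rrm2, Tk1 and Tyms. DESeq2 called 6 higher (13.0%; 5.06% of all) and 0 lower (1.86% of all), namely Clspn, Mcm10, Rfc5, Rrm1, Rrm2 and Tyms. Rfc5, Rrm1, Rrm2 and Tyms were in both lists. Voom called Rrm2 alone (1.99% of all tested genes were higher), and in the roles below where edgeR called 0 genes voom called 0 as well.

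**Figure D2:**
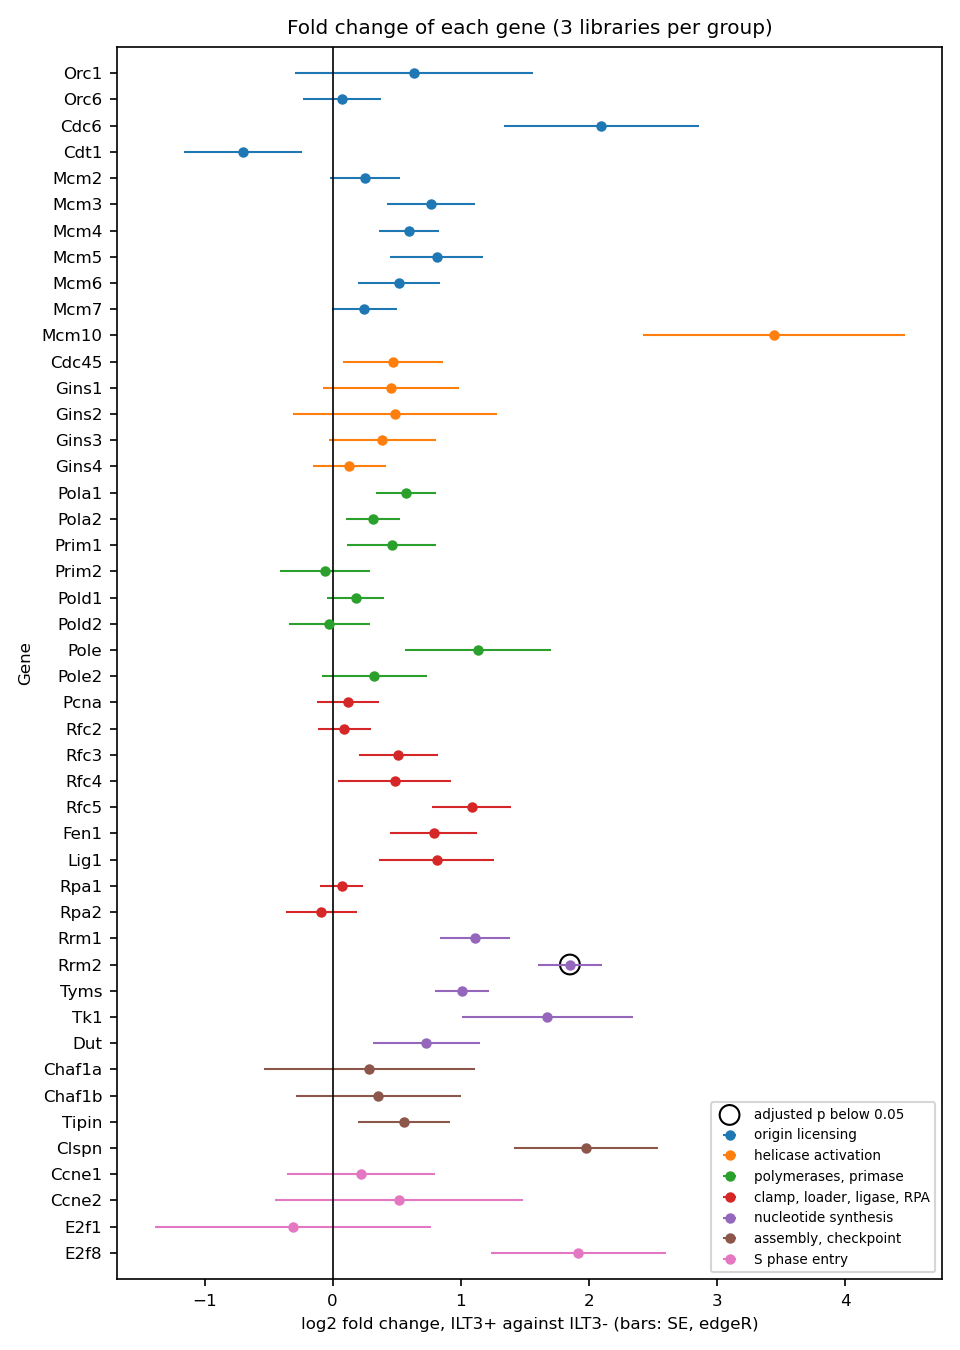
Log2 fold change of ILT3+ against ILT3- cells for each of the 46 genes, grouped by role, with bars of 1 SE from edgeR on 3 samples per group. Points lie between -0.70 and 3.44, 41 of 46 above 0, and Rrm2 is the gene with an adjusted p under 0.05.

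The genes of nucleotide synthesis had the largest median log2 fold change of the roles, except without ILT3- sample 1 or both samples numbered 1 (1.09 and 0.96, against 1.11 and 1.07 for chromatin assembly and fork checkpoint) and on intron reads. All 5 had values above 0 (median 1.11), and their summed level was 400.0, 252.8 and 246.1 CPM in ILT3+ samples 1, 2 and 3 against 144.4, 106.5 and 138.0 CPM in ILT3- samples 1, 2 and 3. Each of the 5 was higher in ILT3+ cells within all 3 sample numbers. Ribonucleotide reductase, which makes deoxynucleotides from ribonucleotides, consists of the large subunit Rrm1 and the small subunit Rrm2, the latter being made mainly in S phase. Rrm2 (GRCm38 chromosome 12, 24708241 to 24714146) measured 17.1, 21.5 and 16.9 CPM in ILT3- against 84.1, 59.8 and 56.9 CPM in ILT3+ samples. The lowest ILT3+ sample was thus far above the highest ILT3- sample. The means were 18.5 ± 2.62 and 66.9 ± 14.9 CPM (SD, n = 3 each), with a log2 fold change of 1.85 (SE 0.25, edgeR adjusted p = 0.0127). Of its reads 99.0% were uniquely placed. Leaving out 1 library ended the call in 4 cases. The edgeR adjusted p was 0.0553 and 0.0721 with ILT3- samples 2 and 3 left out in turn, and 0.0581 and 0.0504 with ILT3+ samples 2 and 3 left out in turn. The log2 fold change itself was 1.63 to 1.98 over all settings with samples left out. The adjusted p was 0.0251 without ILT3- sample 1 and 0.0244 without ILT3+ sample 1, and 0.00900 without both samples numbered 1. Of all tested genes 0.44%, 0.187%, 0.356% and 0.39% were called higher in the 4 settings that ended the call, and 1.91% and 1.51% in the other two.

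Rrm1 (chromosome 7, 102441695 to 102469771) measured 49.1, 36.3 and 66.7 CPM in ILT3- against 137.4, 99.5 and 92.4 CPM in ILT3+ samples. The groups did not overlap, and the log2 fold change was 1.11 (SE 0.27). Its adjusted p was 0.0959 in edgeR, 0.0416 with the block and 0.00827 in DESeq2. Per exon length the subunits came close to each other in ILT3+ cells. The ratio of Rrm2 to Rrm1, in exon reads per kilobase, was 0.922, 0.869 and 0.893 in the ILT3+ samples, against 0.548, 0.932 and 0.370 in the ILT3- samples. The ILT3+ ratios lie within the range of the ILT3- ratios.

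Tyms encodes thymidylate synthase, the enzyme that makes thymidylate anew (chromosome 5, 30058202 to 30073617). It measured 21.0, 21.8 and 24.3 CPM in ILT3- against 47.6, 43.75 and 44.1 CPM in ILT3+ samples, with a narrow spread in both groups. The log2 fold change was 1.01 (SE 0.21). It missed the threshold in edgeR (adjusted p = 0.0558) and passed it on unique reads (0.0434; Rrm2 and Tyms were the 2 called there, against 2.23% of all tested genes), with the block (0.0362) and in DESeq2 (0.000335). Tk1, the thymidine salvage kinase, measured 18.4, 6.76 and 4.14 CPM in ILT3- against 55.1, 21.15 and 16.75 CPM in ILT3+ samples. Within each number it was higher in ILT3+ cells, but ILT3- sample 1 lay above ILT3+ sample 3. Its log2 fold change was 1.68 (SE 0.67, edgeR adjusted p = 0.314, with the block 0.0156), and 15.04% of its reads had a unique place. Dut, which removes dUTP, was 0.73 higher on the log2 scale (SE 0.42), with an adjusted p of 0.528.

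**Figure D3:**
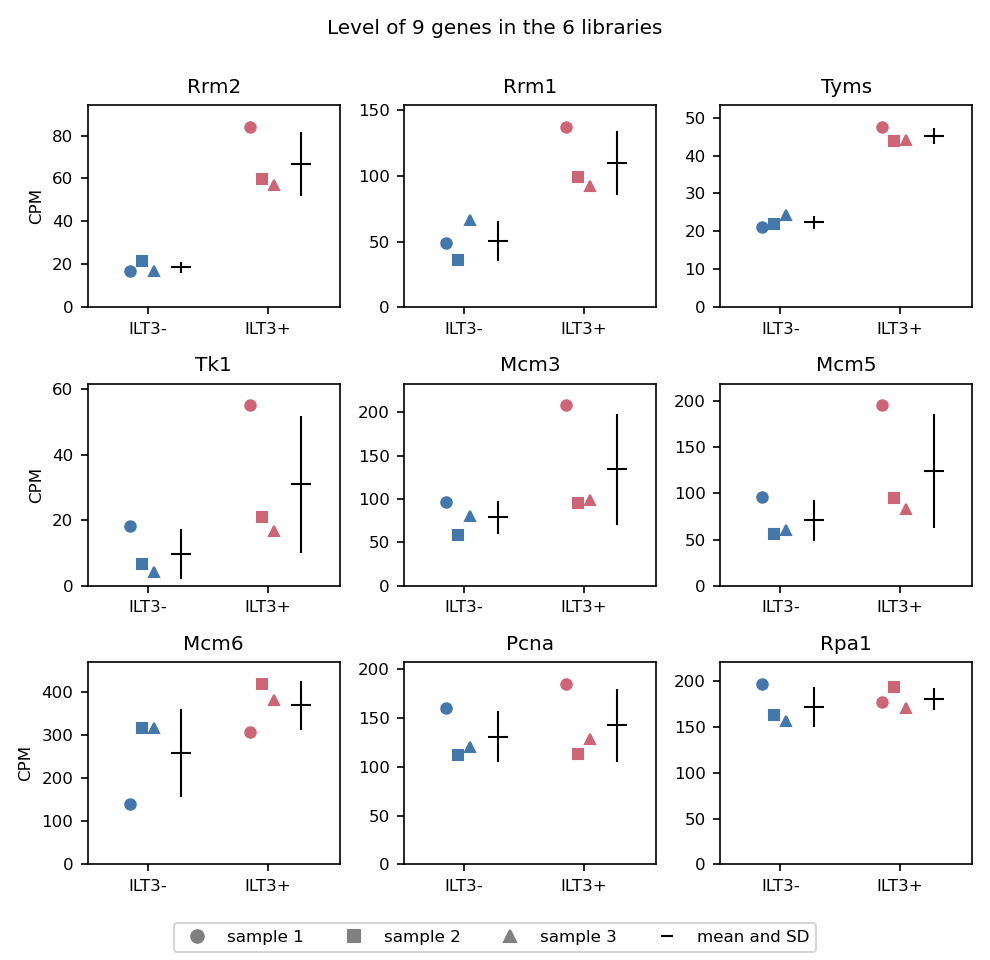
CPM in each sample for 9 of the genes (Rrm2, Rrm1, Tyms, Tk1, Mcm3, Mcm5, Mcm6, Pcna and Rpa1), points for samples (shape by sample number) and black marks for the group mean with SD. Rrm2, Rrm1 and Tyms have ILT3+ samples all above the ILT3- samples, whereas Pcna and Rpa1 overlap between groups.

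Of 10 licensing genes, 9 had a log2 fold change above 0 (median 0.56); edgeR and DESeq2 called 0, and in edgeR 2 had an unadjusted p under 0.05. The blocked fit called 2, Cdc6 and Mcm5. The ring subunits Mcm2 to Mcm7 were the most abundant of them. Mcm4 measured 92.9, 87.6 and 88.7 CPM in ILT3- against 186.4, 109.6 and 110.9 CPM in ILT3+ samples, so that the groups did not overlap (log2 fold change 0.60, SE 0.24, adjusted p = 0.316). Mcm3 was at 97.1, 59.1 and 80.5 CPM in ILT3- and at 208, 95.2 and 99.2 CPM in ILT3+ samples (0.77, SE 0.34, adjusted p = 0.384). Mcm5 measured 96.5, 56.5 and 60.2 CPM in ILT3- against 195, 95.1 and 83.3 CPM in ILT3+ samples. In Mcm3 and Mcm5 ILT3+ sample 1 was far above the other ILT3+ samples, and those lay within the ILT3- range, except that Mcm3 in ILT3+ sample 3 was just above it. The log2 fold change of Mcm5 was 0.81 (SE 0.37, adjusted p = 0.387), and with the block its adjusted p was 0.0417. Mcm2 and Mcm7 had log2 fold changes of 0.25 each (SE 0.27 and 0.25, adjusted p = 0.783 and 0.771), and in both ILT3+ samples 2 and 3 lay within or below the ILT3- range.

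Mcm6 was uneven between sample numbers. It measured 139.5, 317 and 316 CPM in ILT3- against 307, 418 and 381.5 CPM in ILT3+ samples. In each group the lowest library was thus sample 1, and the log2 fold change of 0.52 had an SE of 0.32 (adjusted p = 0.567). Summed per exon length, the 6 ring subunits were at 226.3, 284.1 and 295.3 RPKM (exon reads per kilobase of exon, scaled to a common total of exon reads) in ILT3- samples 1, 2 and 3 and at 478.8, 369.5 and 364.5 in ILT3+ samples 1, 2 and 3. Mcm6 was the most abundant of the 6 in every library, by a factor over the least abundant of 1.95 and 2.54 in the samples numbered 1 and 5.61 to 6.46 in the other 4.

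The loading factors were low and uneven. Cdc6 measured 6.73, 1.10 and 3.12 CPM in ILT3- against 28.05, 9.33 and 9.17 CPM in ILT3+ samples, with no overlap (log2 fold change 2.10, SE 0.76, adjusted p = 0.263, with the block 0.0418). Cdt1, its partner in loading, pointed the other way and measured 5.53, 12.7 and 10.5 CPM in ILT3- against 5.72, 6.67 and 5.26 CPM in ILT3+ samples (-0.70, SE 0.46, adjusted p = 0.592). The groups overlapped in Cdt1. The origin recognition genes Orc1 and Orc6 had log2 fold changes of 0.64 (SE 0.93) and 0.07 (SE 0.31), with adjusted p of 0.850 and 0.958. Orc1 was at 11.3 and 17.4 CPM in the samples numbered 1 and at 1.65 to 3.78 CPM in the other 4, and 40.1% of its reads were uniquely placed.

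All 6 helicase activation genes had values above 0 (median 0.46); edgeR called 0, with 1 at an unadjusted p under 0.05, and DESeq2 called 1, Mcm10. Mcm10, which joins the helicase as it fires, had the largest fitted value of the 46. It had 0, 17 and 41 reads in ILT3- samples 1, 2 and 3 and 246, 124 and 196 reads in ILT3+ samples 1, 2 and 3, that is 0, 1.34 and 2.98 CPM against 23.1, 9.97 and 15.6 CPM. The groups were far apart, yet the log2 fold change of 3.44 had an SE of 1.02 and an adjusted p of 0.166 in edgeR. In DESeq2 the adjusted p was 0.00221, and with the block 0.101. Cdc45 measured 17.5, 12.3 and 11.4 CPM in ILT3- against 11.2, 23.3 and 22.6 CPM in ILT3+ samples (0.47, SE 0.39, adjusted p = 0.703), lower in ILT3+ within number 1 and higher within numbers 2 and 3. The 4 GINS subunits Gins1, Gins2, Gins3 and Gins4 had log2 fold changes of 0.45, 0.49, 0.39 and 0.13, with adjusted p of 0.780 to 0.905.

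Among 8 polymerase and primase genes 6 had a positive value, with a median of 0.32. EdgeR and DESeq2 called 0, and 1 (Pola1) had an unadjusted p under 0.05 in edgeR. Pola1, the catalytic subunit of polymerase alpha that starts each strand, measured 37.2, 35.4 and 24.5 CPM in ILT3- against 48.6, 45.7 and 50.2 CPM in ILT3+ samples. The groups did not overlap, and the log2 fold change of 0.57 had an SE of 0.23 (adjusted p = 0.326). Pola2, its accessory subunit, did not overlap either, with 47.8 CPM in ILT3- sample 2 next to 47.9 CPM in ILT3+ sample 3 (0.32, SE 0.21, adjusted p = 0.606). Pole, the leading strand polymerase, measured 16.9, 7.46 and 11.2 CPM in ILT3- against 49.0, 14.6 and 14.6 CPM in ILT3+ samples (1.14, SE 0.57, adjusted p = 0.442). ILT3+ sample 1 alone was above all ILT3- samples there. Pold1 and Pold2 of polymerase delta had log2 fold changes of 0.18 and -0.03, and Prim1 and Prim2, the primase subunits, 0.46 and -0.06. Pole2, the second subunit of polymerase epsilon, had 0.32, and the adjusted p of these 5 genes was 0.660 to 0.985.

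Of 9 genes of the clamp, clamp loader, flap processing, ligation and single-strand binding, 8 had a positive value, with a median of 0.48. EdgeR called 0, with 2 at an unadjusted p under 0.05 (Rfc5 and Fen1), and DESeq2 called 1, Rfc5. Pcna, the clamp itself and a common marker of proliferating cells, measured 160.4, 112.0 and 120.0 CPM in ILT3- against 184.7, 113 and 129 CPM in ILT3+ samples. The groups overlapped (0.12, SE 0.24, adjusted p = 0.894), and 44.5% of its reads were uniquely placed. The loader subunit Rfc5 had the largest value in this role. It measured 28.7, 13.7 and 24.3 CPM in ILT3- against 49.1, 42.5 and 49.9 CPM in ILT3+ samples. All ILT3+ samples were above all ILT3- samples, by 1.09 on the log2 scale in the fit (SE 0.31, adjusted p = 0.145 in edgeR, 0.0442 with the block and 0.0275 in DESeq2). The other loader subunits were closer: Rfc3 had 0.51, Rfc4 0.48 and Rfc2 0.09, with adjusted p of 0.550, 0.734 and 0.909. Fen1, the flap nuclease of lagging strand processing, had 0.79 (SE 0.34, adjusted p = 0.357). A unique place was given to 7.99% of its reads, and on unique reads its value was 0.36 (adjusted p = 0.850). Lig1, the ligase that joins lagging strand fragments, measured 38.8, 37.8 and 22.7 CPM in ILT3- against 102, 35.2 and 37.2 CPM in ILT3+ samples (0.81, SE 0.45, adjusted p = 0.505), so that ILT3+ samples 2 and 3 lay within the ILT3- range. Rpa1 and Rpa2, which coat single-stranded DNA, had log2 fold changes of 0.07 (SE 0.17) and -0.09 (SE 0.28), with adjusted p of 0.914 and 0.937. Rpa1 was at 156 to 197 CPM in all 6 samples.

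Of the 4 genes of chromatin assembly and the fork checkpoint all had positive values, with a median of 0.46. EdgeR called 0, and Clspn alone had an unadjusted p under 0.05 and was called by DESeq2. Clspn encodes claspin, which relays stalled fork signals to the kinase Chk1. It measured 3.96, 1.96 and 2.47 CPM in ILT3- against 17.2, 9.49 and 6.30 CPM in ILT3+ samples, with no overlap (log2 fold change 1.98, SE 0.56, adjusted p = 0.147 in edgeR and 0.0122 in DESeq2). Tipin, a fork protection factor, had 0.56 (SE 0.36, adjusted p = 0.590). Chaf1a and Chaf1b of the histone chaperone CAF-1 had 0.29 and 0.36 (SE 0.82 and 0.64, adjusted p = 0.931 and 0.884).

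The 4 regulators of S phase entry were low in all 6 samples, at 0.12 to 8.62 CPM. EdgeR and DESeq2 called 0, and 1 (E2f8) had an unadjusted p under 0.05 in edgeR. E2f8, an E2F family repressor that is itself induced in S phase, measured 1.32, 1.81 and 1.74 CPM in ILT3- against 1.88, 8.04 and 8.62 CPM in ILT3+ samples. The groups did not overlap, but ILT3+ sample 1 was close to the ILT3- samples. The log2 fold change of 1.92 had an SE of 0.68 (adjusted p = 0.256 in edgeR and 0.0457 without the samples numbered 1). E2f1, an activator of S phase genes, was at 0.291 to 5.53 CPM in ILT3- and 0.638 to 4.41 CPM in ILT3+ samples (-0.31, SE 1.08, adjusted p = 0.944). The cyclins Ccne1 and Ccne2, which activate Cdk2 at S phase entry, had log2 fold changes of 0.22 and 0.52 (SE 0.58 and 0.97, adjusted p = 0.922 and 0.887).

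**Figure D4:**
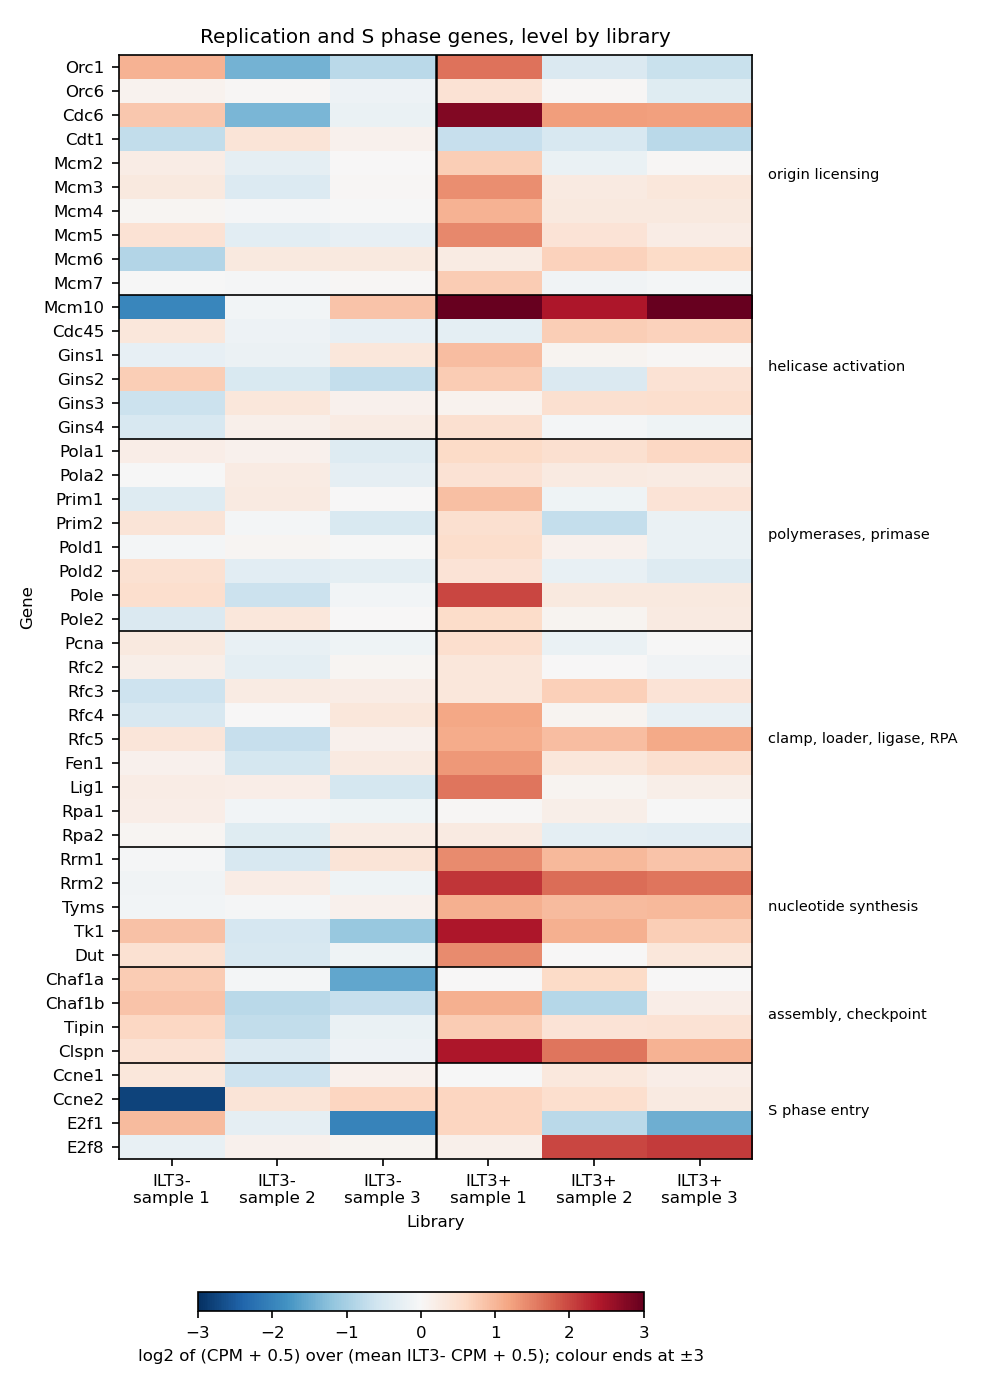
CPM of each of the 46 genes in each of the 6 samples, as log2 ratio to the gene's mean over the ILT3- samples, with genes in rows by role; 0.5 CPM was added and colours end at ±3. The column of ILT3+ sample 1 is the highest of the 6 for 32 of the 46 genes.

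One library stood above the others. ILT3+ sample 1 was the highest of the 6 for 32 of the 46 genes (69.6%), against 20.1% of all tested genes. It was above both other ILT3+ samples for 35 of the 46, and for 5574 of all 13694 tested genes. ILT3- sample 1 was above both other ILT3- samples for 26 of the 46, and for 5234 of all tested genes. Summed over the 46 genes, ILT3+ samples 1, 2 and 3 had 3155, 2213 and 2181 CPM, and ILT3- samples 1, 2 and 3 had 1894, 1713 and 1804 CPM. The groups did not overlap in this sum, and ILT3+ samples 2 and 3 lay closer to the ILT3- samples than to ILT3+ sample 1. This is also the library with 1099 CPM of macrophage markers. Without it 1 of 46 genes was called (Rrm2; 1.51% of all genes were called higher), 31 of 46 had a positive value, and the median log2 fold change was 0.28 in place of 0.49. Without both samples numbered 1, 45 genes could be tested and 4 were called higher, E2f8, Mcm10, Rrm2 and Tk1, against 4.48% of all tested genes. There the median was 0.36 and 34 of 45 values were positive.

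Within sample numbers the difference was positive for most genes each time. The median log2 ratio of ILT3+ to ILT3- (CPM with 0.5 added) was 0.76 in number 1, 0.31 in number 2 and 0.35 in number 3, where all tested genes had medians of 0.0064, 0.0039 and -0.03. It was above 0 in 40, 36 and 35 of the 46 genes. In 25 genes (54.3%) ILT3+ was higher within all 3 numbers, against 22.4% of all tested genes. The numbers are taken to pair samples from the correlation of their deviations, which the labels do not state.

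**Figure D5:**
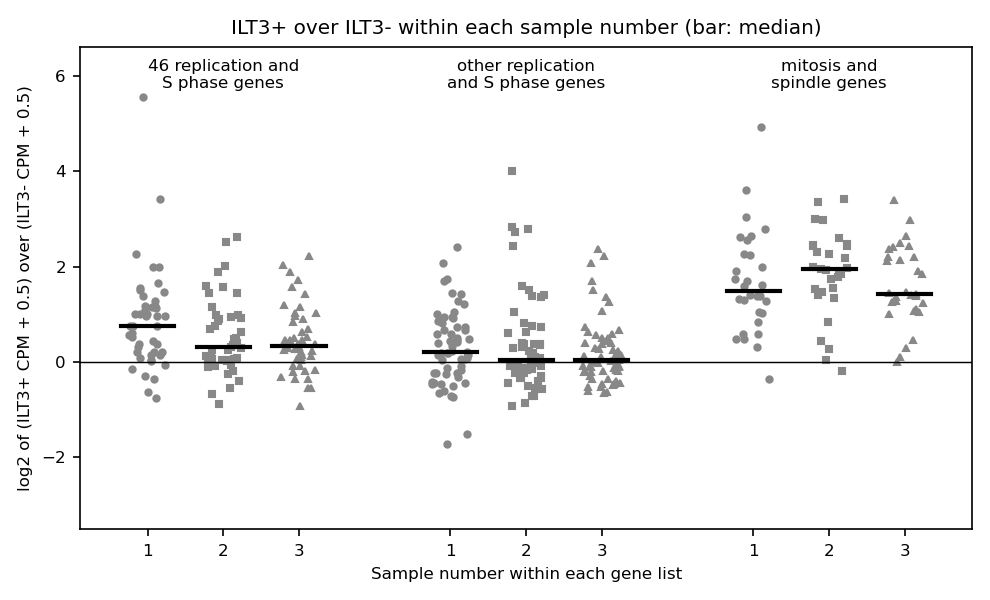
Log2 ratio of ILT3+ to ILT3- CPM within each sample number (0.5 CPM added) for the 46 replication and S phase genes, 60 other replication and S phase genes and 30 mitosis and spindle genes; points are genes and bars are medians. Medians of the 46 genes are 0.76, 0.31 and 0.35, and those of the mitosis genes 1.497, 1.95 and 1.43. Those of the 60 other genes, a mixed list that includes retinoblastoma proteins, are 0.22, 0.04 and 0.04.

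Levels of different genes were compared per exon length, as RPKM of total exon reads. Mcm6 had the highest mean of the 46 in both groups, at 110.0 ± 48 RPKM in ILT3- and 163 ± 28.4 RPKM in ILT3+ cells (SD, n = 3). In ILT3- sample 1 it was at 54.6 RPKM, below Pcna (56.9) and level with Rfc2 (54.5), and it was above both in the other 5 samples. Pcna followed at 61.55 and 74.9 RPKM and Rfc2 at 50.5 and 61.0 RPKM in ILT3- and ILT3+ cells. The ranges of Pcna and Rfc2 overlapped in ILT3+ cells (63.5 to 87.65 and 53.2 to 73.3 RPKM) and did not in ILT3- cells (56.9 to 65.2 and 43.7 to 54.5 RPKM). The nucleotide genes were lower, with Rrm1 at 15.7 and 35.8 RPKM and Tyms at 4.46 and 9.01 RPKM in ILT3- and ILT3+ cells. In 9 genes mean CPM was under 10 in both groups, and there the reads limit what can be told. The gene models of 18 of the 46 overlap others, and 6 had under 70% of their reads uniquely placed: Orc1, Pcna, Fen1, Tk1, Prim2 and Ccne2.

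The median was larger on exon reads than on intron reads. Total gene reads include introns, which held a median of 9.79% of the reads of these genes. On exon reads 44 of 46 had a positive value with a median of 0.74, and 1 was called (Rrm2; 1.79% of all tested genes were called higher). Intron reads sufficed for 38 of the 46. In those 38 the median log2 fold change was 0.10 on intron reads, with 23 positive and 0 called by edgeR (3 at an unadjusted p under 0.05), against 0.65 on exon reads, with 37 positive. Over all genes tested on intron reads 0.627% were called higher. By role, intron medians were -0.18 for 8 licensing genes, 1.13 for 4 nucleotide genes and 3.43 for 2 S phase entry regulators, the last above their exon value of 0.94 over all 4 and set by E2f8 (6.69 on intron reads, which were 12.9% of its 286 reads). The difference between exon and intron values was not tested.

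Of 60 other replication and S phase genes, among them the remaining origin recognition subunits, E2F factors, retinoblastoma proteins and salvage enzymes, edgeR called 0, with 9 higher and 1 lower at an unadjusted p under 0.05 (8.43% and 5.37% of all tested genes). DESeq2 called 3 of them, Asf1b, Ccna2 and Ticrr, where it called 5.06% of all tested genes higher. Their median log2 fold change was 0.08, 31 of 60 values were positive, and in 14 (23.3%, against 11.4% of all tested genes) every ILT3+ sample was above every ILT3- sample. Single values were as large as 2.72, that of Ticrr, a factor of replication initiation. Asf1b, a histone chaperone, had the smallest p and measured 17.2, 13.2 and 20.85 CPM in ILT3- against 40.7, 38.7 and 29.7 CPM in ILT3+ samples (1.09, SE 0.28, adjusted p = 0.110). Of 13 tested CDK inhibitors and G1 cyclins edgeR called 0, with 2 higher and 2 lower at an unadjusted p under 0.05. Cyclin D3, Ccnd3, averaged 462 ± 33.9 CPM in ILT3- against 298 ± 46.3 CPM in ILT3+ cells (n = 3 each, SD; fitted log2 difference -0.63, edgeR adjusted p = 0.154). The antiproliferative gene Btg2 was at 232 ± 16.75 and 142 ± 25.1 CPM (SD, n = 3; fitted log2 difference -0.70, edgeR adjusted p = 0.121). With the block both were called lower, with adjusted p of 0.0203 and 0.0251, and 2.62% of all tested genes were. DESeq2 called Cdk6 higher and 2 genes of this list lower.

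The genes of mitosis and spindle are mostly, though not all, those whose products act after S phase. Of 30, edgeR called 10 higher (33.3%, against 1.96% of all tested genes), and 26 did not overlap between groups (86.7%, against 11.4%). DESeq2 called 23 and the blocked fit 15. EdgeR called 0 (23 to 24 higher at an unadjusted p under 0.05) with any one of samples 2 and 3 of either group left out, 3 without ILT3+ sample 1 and 6 without ILT3- sample 1, while the median stayed at 1.70 to 2.03. Their median log2 fold change was 1.84, beside 0.49 for the 46 replication and S phase genes. Within sample numbers 1, 2 and 3 the medians were 1.497, 1.95 and 1.43, beside 0.76, 0.31 and 0.35. ILT3+ sample 1 was the highest library for 9 of the 30 mitosis genes (30.0%) and for 32 of the 46 replication genes (69.6%). Mki67, the proliferation marker Ki-67, measured 22.35, 16.7 and 10.5 CPM in ILT3- against 73.9, 66.4 and 56.1 CPM in ILT3+ samples (log2 fold change 1.99, SE 0.31, edgeR adjusted p = 0.0212). No test of the difference between the gene lists was made. Rrm2 is the one replication gene that was called, and its log2 fold change of 1.85 is close to the median of the mitosis genes.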

How the data were processed

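RNA of 3 ILT3+ and 3 ILT3- samples was made into full-length cDNA from 1 ng of total RNA (SmartSeq V2) and sequenced as Nextera XT libraries, per the labels' protocols. The authors deposited a table of read counts per gene, exon and intron for each sample, in total and uniquely placed, per the file headers. The build is GRCm38 per the submitters' processing notes; aligner, counter and strand setting are not given in the sources used. Reads of overlapping genes, antisense genes and near-identical copies can therefore be shared.

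Total gene counts, intronic reads included (24.0% to 28.3% per library), were fitted in edgeR 4.0.16 (R 4.3.3): TMM scaling, default expression filter (minimum count 10, total 15), robust quasi-likelihood fit on group, Benjamini-Hochberg adjustment over all 13694 tested genes at 0.05. CPM use TMM-scaled library sizes. RPKM were computed from the deposited exon counts and exon lengths. The floor of 3 reads covers counting error only. No 2 libraries held the same counts within counting noise (chi-square divided by its degrees of freedom was 18.3 to 128 over all pairs), which does not show separate animals; each is counted as 1 sample, as labelled.

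The 46 genes and the other gene lists were chosen with earlier results of these data known. Of 231 symbols 227 were matched by name, 2 by synonym and 2 (Cr2 and Ebf1) not. Some marker genes are not reported here by name. All 46 genes are named, and of other lists those with the smallest p; Cdk6, Mki67 and markers were named after their values were seen. Rrm2's promoter was added after its call was seen. Alternatives were DESeq2 1.42.0 (size factors, test), voom in limma 3.58.1, other filters, exon, unique and intron reads, a replicate block, and left-out samples. Correlations of deviations from the group means were 0.40, 0.26 and 0.27 for like-numbered samples, and 0.12 and 0.16 across numbers 2 and 3, so numbers were taken to pair samples; the labels do not state this.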

Additional observations from a re-analysis of the deposited data

How the results depend on the processing

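Over 16 alternatives to the edgeR fit, 653 of 727 values of single genes kept their direction and their side of the threshold, 15 passed it newly, 4 lost it (all Rrm2, each with 1 library left out) and 55 changed sign. For 25 of the 46 genes the sign never changed. The number of genes called among all tested was 316; it was 948 in DESeq2's test, 932 with the replicate block, 78 on intron reads and 31 to 786 with samples left out. Among the 46 genes 1 was called; DESeq2's test called 6, the block 7, unique reads 2, intron reads 0 (edgeR, 3 at an unadjusted p under 0.05) and left-out samples 0 to 4. Among genes of the other 3 pathway lists 10 were called, against 29 in DESeq2's test, 17 with the block, 0 on intron reads and 0 to 18 with samples left out. The median log2 fold change was 0.74 on exon reads, 0.10 on intron reads and 0.28 to 0.65 with samples left out. Intron reads and left-out samples give fewer reads or samples by construction; otherwise the cause was not tested. The pairing behind the block changed no call beyond those in these counts.

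Pold2 was at 0.014 without a filter, 0.015 on exon reads and 0.012 in voom. Exon reads gave Prim2 0.56 and E2f1 0.80, unique reads Prim2 0.19 and Pcna -0.10, and voom E2f1 0.15. Intron reads gave Orc1 -0.18, Orc6 -0.93, Mcm2 -1.08, Mcm3 -0.52, Mcm7 -0.18, Cdc45 -0.42, Pold1 -0.058, Pole2 -0.68, Pcna -0.69, Rfc2 -0.53, Chaf1a -0.12 and Chaf1b -1.17. With samples left out, values ran from -0.59 to 1.86 for Orc1, -0.15 to 0.26 for Orc6, -0.076 to 0.45 for Mcm2, -0.089 to 0.41 for Mcm7, -0.028 to 0.69 for Gins1, -0.25 to 0.27 for Gins4, -0.43 to 0.19 for Prim2, -0.026 to 0.35 for Pold1, -0.30 to 0.28 for Pold2 and -0.11 to 0.29 for Pcna. They ran from -0.046 to 0.19 for Rfc2, -0.23 to 0.74 for Rfc4, -0.31 to 0.053 for Rpa2, -0.22 to 1.23 for Chaf1a, -0.23 to 1.13 for Chaf1b, -0.058 to 0.59 for Ccne1, -0.10 to 1.05 for Ccne2 and -1.43 to 0.80 for E2f1.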
